A study of Brassica napus with 2 samples.

Results

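Stretches of chromosomes C01, C02 and C08 of *B. napus* in which few genes were expressed in seedlings are described here. Their members were the genes whose identifiers gave a number from 33010 to 35500 on C01, from 5010 to 6500 on C02 or from 43510 to 46000 on C08, with the *Aux/IAA* genes (the family of auxin signalling repressors the study is about) left out. This gave 137 of the 63193 genes in the table, of which 60 were on C01, 24 on C02 and 53 on C08. The RNA came from whole seedlings, 30 days old, of a cultivar not given in the sources used here. Before harvest the seedlings were given 1 μM IAA, a natural auxin, in a liquid medium for 3 h. The control seedlings had none (0 μM), and for these the labels give water and the methods medium without IAA. Each condition had 1 library from 10 pooled seedlings, so that there was no replicate and no test of the conditions. The values are FPKM, in which fragment numbers are divided by transcript length and by the size of the library. In RNA of whole seedlings, fewer cells that express a gene and less RNA of it per cell cannot be told apart.

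*B. napus* is an allotetraploid that carries the A chromosomes of *B. rapa* and the C chromosomes of *B. oleracea*, so that most genes of a C chromosome have a homeolog on an A chromosome. Corresponding stretches of both subgenomes are similar enough to recombine, and cultivars are known to differ in which of the copies a stretch holds. Genes of the Darmor-*bzh* reference genome are numbered along each chromosome, mostly in steps of 10, and a gene's number therefore gives its place among its neighbours. In FPKM values from reads mapped to that reference, a gene that is missing from the plants and a gene that is not transcribed cannot be told apart.

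The segments were chosen by their low FPKM in these same libraries. Their levels against the rest of the chromosome are therefore a description and carry no test. In the C01 segment the median was 0.162 FPKM in the control library and 0.116 FPKM with IAA, against 2.96 FPKM and 2.66 FPKM over the 2446 other genes of C01. In the C08 segment it was 0.121 FPKM and 0.125 FPKM, against 3.19 FPKM and 2.87 FPKM over 2809 genes. The C02 segment had the lowest control median of the 3, at 0.0700 FPKM, with 0.0988 FPKM in the IAA library, against 1.74 FPKM and 1.54 FPKM over 2082 genes. At least 1 FPKM was reached by 16.7% of the C01 members in the control and 18.3% with IAA, by 4.17% and 8.33% of the C02 members, and by 24.5% of the C08 members in each library. Over the rest of these chromosomes the share at 1 FPKM or more lay between 56.4% (C02, IAA) and 69.3% (C08, control).

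**Figure D1:**
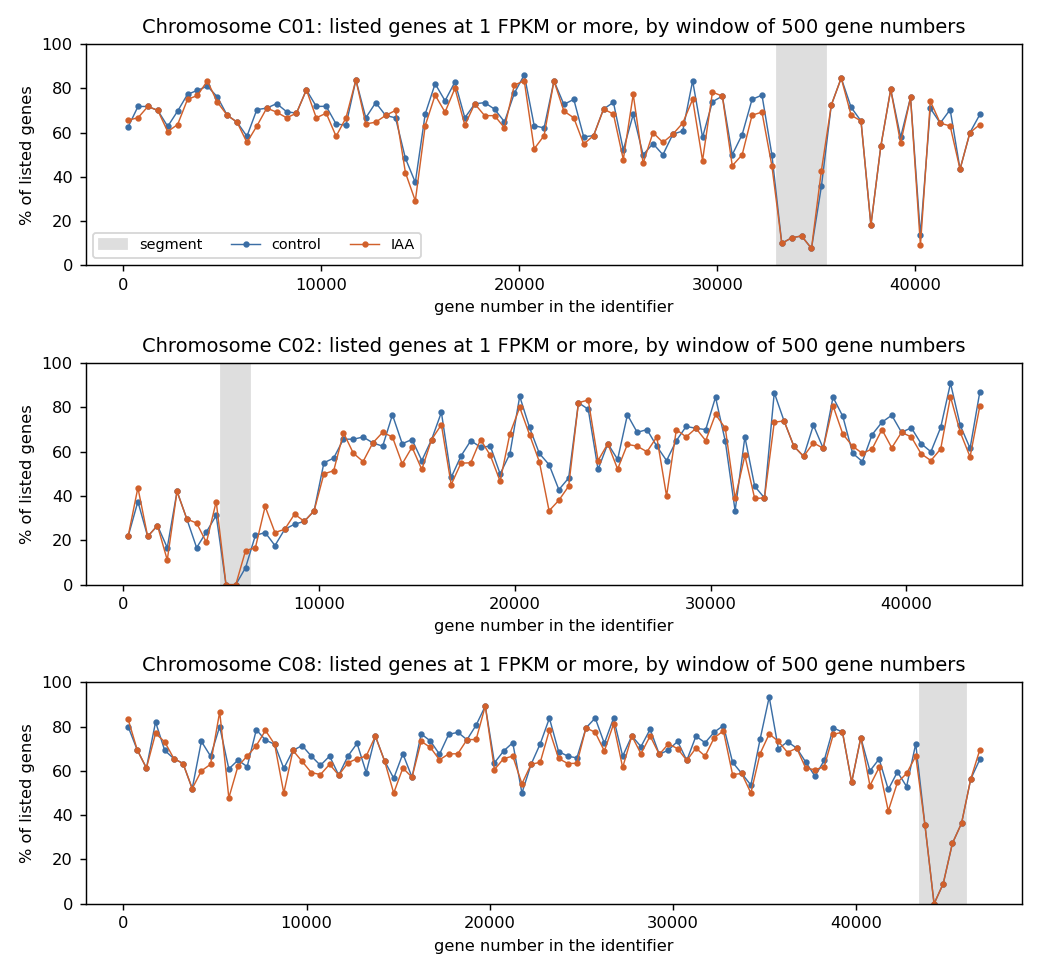
Share of listed genes at 1 FPKM or more (y axis, %) in successive windows of 500 gene numbers (x axis) along C01, C02 and C08, in the control and IAA libraries, with the segments in grey. Both libraries drop together in the segments, and on C02 the low share runs on over about the first 10000 numbers.

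The segments were also thinly listed. No gene at 0 FPKM in both libraries is in the table, and a number with no row was not analysed here. Of the numbers in steps of 10, 24% had a member in the C01 segment, 16.0% in the C02 segment and 21.2% in the C08 segment, against 59.5%, 48.5% and 62.6% in the rest of these chromosomes. The longest run without a row in the C02 segment was 58 numbers, between 5120 and 5710. No run on C02 outside the segment exceeded 25 numbers. On C08 the longest run was 31 numbers, between 43840 and 44160, against 10 numbers at most outside the segment. C01 was different in this respect, since a run of 17 numbers between 33650 and 33830 was matched by 1 of 18 numbers outside the segment, between 37590 and 37780. Of the steps from one listed gene to the next, 23.7% (C01), 30.4% (C02) and 24.5% (C08) skipped at least 5 numbers, against 2.94%, 5.14% and 2.06% outside.

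In windows of 500 numbers, the segments filled 13 of the 1718 windows on all chromosomes. These held 5 to 15 listed genes, against a median of 33 genes in the other windows, and no median in them was above 0.691 FPKM in either library. A median as low in both libraries was found in 32 of the 1705 windows outside the segments, 15 of which lay in the first 10000 numbers of C02. In 6 of the 32 windows at most 15 genes were listed as well.

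The borders differed in sharpness. At the start of the C01 segment, BnaC01g33000D just outside was at 2.86 FPKM in the control and 2.99 FPKM with IAA, and BnaC01g33030D just inside was listed at 0 and 0.0508 FPKM. At its end the order was turned, with BnaC01g35480D inside at 1.70 FPKM and 3.53 FPKM and BnaC01g35510D outside at a listed 0 and 0.0342 FPKM. On C02, BnaC02g04950D before the segment was at 1.02 FPKM and 1.15 FPKM and BnaC02g05010D inside at 0.0516 FPKM and 0.0999 FPKM. At the end of the C02 segment, BnaC02g06500D was at 0.130 FPKM and 0.0673 FPKM and BnaC02g06510D, outside, at 0.854 FPKM and 1.36 FPKM. On C08, BnaC08g43500D outside and BnaC08g43510D inside were both low, at 0.415 FPKM and 0.568 FPKM in the control and 0.0597 FPKM and 0.259 FPKM with IAA. At the other end BnaC08g46000D inside, at 10.4 FPKM and 14.1 FPKM, was above BnaC08g46010D outside, at 6.46 FPKM and 5.06 FPKM. The numbers of the C08 segment thus ran into expressed genes before its upper border was reached.

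The C02 segment lay inside a longer stretch of low values. Before it, the 196 genes up to number 5000 had a median of 0.228 FPKM in the control and 0.212 FPKM with IAA, and 26.5% and 27.6% of them reached 1 FPKM. After it, the 120 genes up to number 10000 had medians of 0.277 FPKM and 0.324 FPKM, with 25% and 27.5% at 1 FPKM or more. Beyond number 10000 the medians of 1766 genes were 2.48 FPKM and 2.15 FPKM, and the shares 65.3% and 61.6%. Within this low stretch, the share of numbers with a listed gene was 16% in the segment, 39.2% before it and 34.3% after it.

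**Figure D2:**
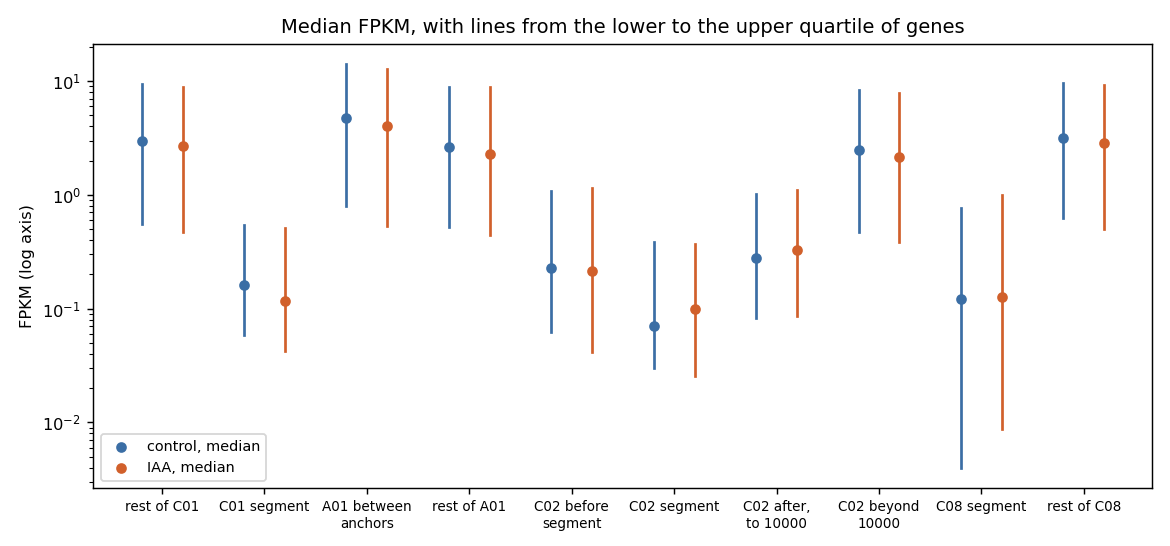
Median FPKM (points, log axis) with lines from the lower to the upper quartile of genes, for the segments, their surroundings and the A01 stretch between anchor genes, in each library (a quartile of 0 is drawn at 0.004). The 3 segments lie below 0.2 FPKM at the median, and the A01 stretch lies above the rest of A01.

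Most members were close to the limit of what these libraries could count. From the low FPKM values of *Aux/IAA* genes with known transcript length, the depth was estimated at 23600000 fragments in the control library and 18300000 with IAA, so that 1 FPKM stood for about 24 fragments per kb of effective transcript length in the control and about 18 with IAA. The median member then had 2.87 fragments per kb in the control and 2.2 with IAA, and 69 and 81 of the 137 members had fewer than 3 fragments per kb. Below 1 FPKM in both libraries were 109 members, or 79.6%, against 30.3% of the genes outside the segments and the family. At least 10 FPKM was reached by 4 members in each library, all on C08.

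Single fragments could be seen in the values. Of all genes in the table, 5083 had values under 0.3 FPKM, but not 0, in each library. For these the IAA to control ratio was most often 1.29, which is what equal numbers of fragments give at the estimated depths. Of the 35 members in this range, 10 (28.6%) had this ratio (within 0.01 on the log2 scale), against 23.8% of the 5083 genes. BnaC01g33850D was at 0.0545 FPKM in the control and 0.0705 FPKM with IAA, and BnaC02g05030D was at 0.0215 FPKM and 0.0278 FPKM. The IAA value was higher for both, in the ratio that equal numbers of fragments give. BnaC01g33090D, at 0.0597 FPKM and 0.0386 FPKM, had the ratio that 2 fragments in the control and 1 with IAA give. BnaC01g33540D, at 0.120 FPKM and 0.0387 FPKM, had the ratio of 4 fragments to 1. After division by the commonest ratio, 1.29, the values of 32 of the 35 members lay within 0.5% of a ratio of whole numbers up to 6. So did those of 82.6% of the 5083 genes. The whole numbers named are the smallest that give the ratio, and multiples of them would give it too.

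Listed at 0 FPKM in 1 library were 52 of the 137 members (38.0%), against 9.99% of the genes outside the segments and the family. The share was 30.0% in the C01 segment, 33.3% in the C02 segment and 49.1% in the C08 segment. Of these, 27 were at 0 in the control and 25 with IAA. Among all genes of the table a listed 0 was less frequent in the control, in 3.23%, than with IAA, in 6.81%. The member listed at 0 in the control with the highest IAA value was BnaC01g35290D, at 0.386 FPKM, and the member listed at 0 with IAA that was highest in the control was BnaC01g34880D, at 0.299 FPKM. Both are named after their values were seen. No fold is given for such genes. The members were chosen for low FPKM, and low genes are more often listed at 0. The higher share of zeros among members thus follows in part from the choice, and it was not set beside genes of like level.

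The members that were expressed were few, and largely the same in both libraries. A level of 1 FPKM was reached in one library or both by 28 members, 22 of them in both, 2 in the control alone and 4 with IAA alone. None of the genes named here has a gene name in the files, and the RefSeq gene table (assembly Da-Ae) matched 1 of the 137 members, BnaC01g34080D, by its identifier alone, so that no function is stated.

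On C01, 13 members reached 1 FPKM and 7 of these lay among the last 500 numbers of the segment. BnaC01g33500D had the highest mean, at 2.61 FPKM in the control and 6.30 FPKM with IAA. Its near neighbour BnaC01g33520D was at 2.97 FPKM and 5.45 FPKM, while BnaC01g33510D between them was at 0.0780 FPKM and 0.252 FPKM. An expressed gene therefore stood beside a nearly silent one. BnaC01g34900D was at 3.62 FPKM and 5.07 FPKM, and BnaC01g35210D at 4.22 FPKM and 4.29 FPKM. BnaC01g35260D was at 1.60 FPKM and 4.35 FPKM. No C01 member reached 10 FPKM in either library.

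On C02, BnaC02g06360D, at 1.5 FPKM in the control and 1.22 FPKM with IAA, and BnaC02g06160D, at 0.977 FPKM and 1.42 FPKM, were the members that reached 1 FPKM. The members next in order were BnaC02g06440D, at 0.880 FPKM and 0.724 FPKM, BnaC02g06490D, at 0.594 FPKM and 0.785 FPKM, and BnaC02g05050D, at 0.391 FPKM and 0.607 FPKM. Of these 5 genes, 4 lay in the last 500 numbers of the segment. In the windows before these, from 5010 to 5500 and from 5510 to 6000, no gene of the 5 and 6 members reached 1 FPKM.

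C08 held the members with the highest levels. BnaC08g45990D, at 99.8 FPKM in the control and 101 FPKM with IAA, made up 48.3% and 55.7% of the summed FPKM of the 53 members. It lies next to BnaC08g46000D, at the upper border, which was at 10.4 FPKM and 14.1 FPKM. At the lower border, BnaC08g43520D was at 16.0 FPKM and 12.2 FPKM and its neighbour BnaC08g43530D at 40.9 FPKM and 19.6 FPKM. The 4 highest genes of the segment thus sat as neighbours at its ends, and together held 80.8% of the summed FPKM in the control and 81.1% with IAA. Within the segment BnaC08g45470D was the highest, at 8.57 FPKM and 5.64 FPKM. The window from 44010 to 44500 held 6 members, none of them at 1 FPKM or more.

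**Figure D3:**
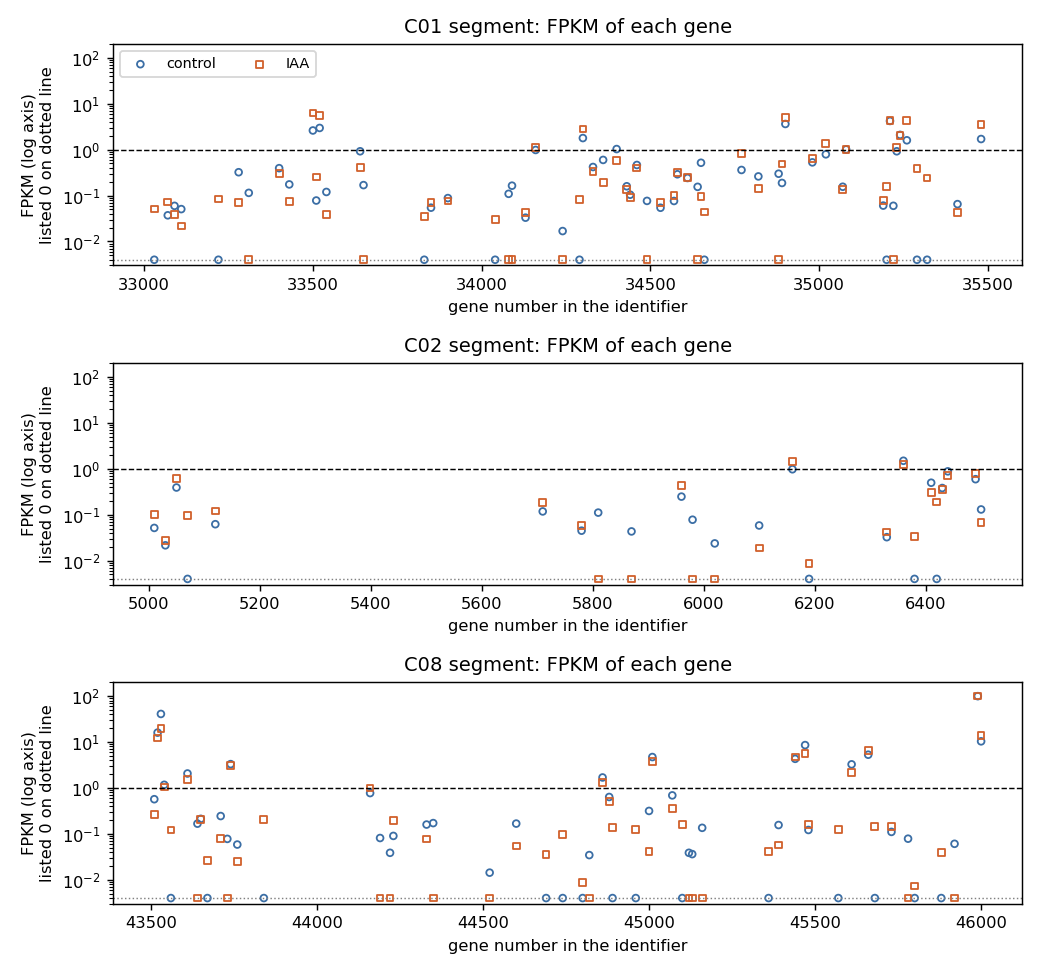
FPKM of each member (log axis) against its gene number, as circles for the control and squares for IAA, with a dashed line at 1 FPKM and listed zeros on the dotted line. Most points lie under 1 FPKM, and the 4 points above 10 FPKM in each library are at the ends of the C08 segment.

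The libraries were compared by the log2 ratio of IAA to control, with 0.1 FPKM added to each value, which understates the fold of low genes. With this measure 15 of the 137 members (10.9%) were higher by 2-fold or more in the IAA library, against 4.22% of all genes. Lower by 2-fold or more were 16 members (11.7%), against 8.68% of all genes. These counts were made up of weak genes, since 12 of the 15 and 15 of the 16 were under 1 FPKM in both libraries, and 11 and 10 of them were listed at 0 in 1 library. Among the 109 members under 1 FPKM in both libraries, 11.0% were 2-fold higher and 13.8% 2-fold lower, against 8.15% and 17.4% of all genes at that level. The median log2 fold change was -0.03 over the members and -0.13 over all genes. By segment it was 0.03 on C01, 0.11 on C02 and -0.29 on C08. With 0.01 FPKM added instead, 31 members were 2-fold higher (22.6%) and 38 lower (27.7%), against 6.82% and 14.4% of all genes at any level. With 1 FPKM added there were 2 (1.46%) and 1 (0.73%), against 1.05% and 1.38% of all genes.

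Among the 28 members that reached 1 FPKM, 3 were higher by 2-fold or more in the IAA library and 1 was lower, against 2.51% and 4.86% of all genes with that minimum. The 3 higher genes were on C01. BnaC01g35260D had a log2 fold change of 1.39, with an estimated 37.7 fragments per kb in the control and 79.6 with IAA. BnaC01g33500D had a log2 fold change of 1.24, with 61.7 and 115 fragments per kb. BnaC01g35480D, the last member of the segment, had a log2 fold change of 1.01, with 40.2 and 64.5 fragments per kb. The next were BnaC01g33520D at 0.85 and BnaC01g35020D at 0.70, so that the 5 largest positive values among these 28 members all came from C01. BnaC01g35020D, at 0.791 FPKM and 1.35 FPKM, passed the minimum only through the IAA library, which favours a positive value. Of the 8 C01 members at 1 FPKM or more in both libraries, 7 had the higher value with IAA. In the rest of C01 it was 37.9% of the 1573 genes at that level. Over all 60 C01 members the directions were nearly even, with 31 higher with IAA and 29 higher in the control.

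The lower gene was BnaC08g43530D, with a log2 fold change of -1.06 and an estimated 965 fragments per kb in the control and 359 with IAA. BnaC01g34400D, at 1.03 FPKM and 0.586 FPKM, followed with -0.72. It passed the minimum of 1 FPKM only through the control library, which favours a negative value. Then came BnaC08g45470D with -0.60 and BnaC08g45610D, at 3.27 FPKM and 2.16 FPKM, with -0.58. BnaC08g43520D, the neighbour of BnaC08g43530D, had a value of -0.39. On C08, 9 of the 13 members at 1 FPKM or more in both libraries had the higher value in the control, or 69.2%, against 61.3% of the 1818 such genes in the rest of C08 and 61.9% over all genes of the table, so that the C08 share was near the background. BnaC08g45990D had a log2 fold change of 0.01. With 1 library per condition, no replicate was there to check them.

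**Figure D4:**
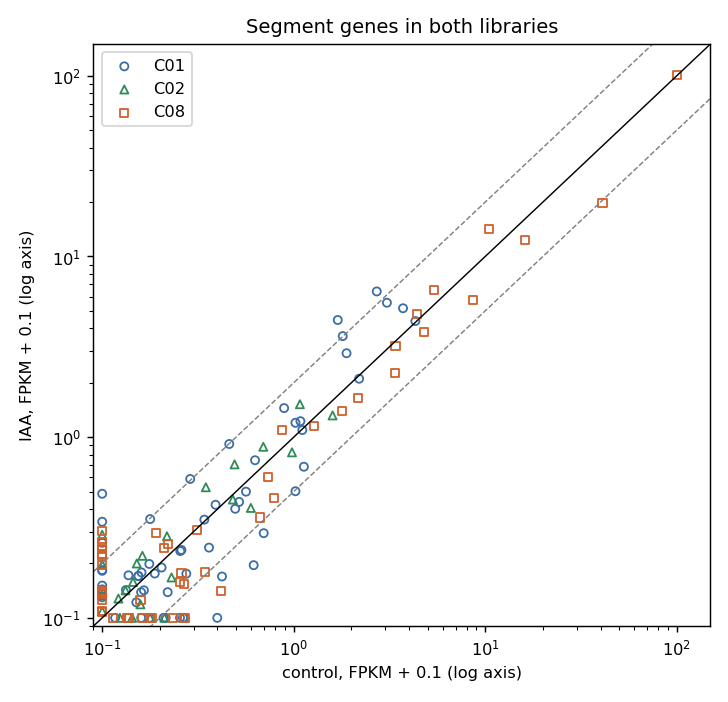
IAA value against control value of the 137 members, each as FPKM + 0.1 on log axes, with symbols by chromosome, a solid line of equality and dashed lines at 2-fold. The C01 points above 1 FPKM lie mostly above the line of equality, most of the C08 points lie below it, and the points along the axes are genes listed at 0 in 1 library.

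Homeologous stretches could be placed only through the *Aux/IAA* gene pairs that the study assigned to both subgenomes. On C01 the nearest placed pairs on either side of the segment were BnaC01g31190D with BnaA01g24190D, and BnaC01g36030D with BnaA01g28670D. Between the anchors on A01, 262 genes were listed with a median of 4.71 FPKM in the control and 4.01 FPKM with IAA, against 2.62 FPKM and 2.29 FPKM over the 2239 other genes of A01. At least 1 FPKM was reached by 71.8% and 67.9% of them, and at least 10 FPKM by 33.2% and 30.5%, against 22.8% in each library in the rest of A01. When the borders of the C01 segment were interpolated between the anchors, which gave A01 numbers 25870 to 28180, the 153 genes there had medians of 5.29 FPKM and 4.32 FPKM. On C01 itself, between the same anchors but outside the segment, medians were 2.88 FPKM and 2.87 FPKM over 88 genes below it, and 4.67 FPKM and 3.39 FPKM over 31 genes above it. Both A01 medians and both flank medians were above those of the C01 segment in each library. The segment was chosen for low FPKM in these libraries, so that this order is a description and carries no test. The A01 stretch between the anchors also includes, at its upper end from number 28510, the start of a block of low genes.

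For C08 the anchors allowed less. Both nearest pairs, BnaC08g36820D with BnaA09g44280D and BnaC08g43820D with BnaA09g50600D, span only the first numbers of the segment, and the 450 genes between them on A09 had medians of 2.48 FPKM and 2.05 FPKM, against 2.89 FPKM and 2.57 FPKM in the rest of A09. Inside the segment lie 2 *Aux/IAA* genes. Of these, BnaC08g43830D (*BnaC08.IAA.6*) was listed at 0 in the control and had 0.0601 FPKM with IAA. Its homeolog BnaA09g50590D was at 17.9 FPKM and 90.7 FPKM. From RNA-seq of separate tissues taken from an earlier study, the paper reports *BnaC08.IAA.6* and its homeolog as both high in leaf. The low value here therefore holds for these seedlings only. BnaC08g43820D, and BnaC01g35050D (*BnaC01.IAA.5*) in the C01 segment, were not analysed here. BnaC01g35050D forms a placed pair with BnaA01g27950D, which was not analysed either, so that the copies of this pair could not be compared. The paper counts *BnaC01.IAA.5* among the genes expressed in certain tissues only, and reports that qRT-PCR gave the same pattern as its tissue RNA-seq. No placed pair lies on C02 near the segment. Over the first 10000 numbers of A02, the chromosome homeologous to C02, 694 genes had medians of 3.24 FPKM and 3.09 FPKM, but which of them match the C02 segment was not determined.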

How the data were processed

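TruSeq libraries of 2 seedling pools had been sequenced on a HiSeq3000. Per the labels, FPKM per gene are what the authors deposited, made with Cufflinks v2.2.1 after mapping with HISAT2 v2.0.4, and the reference was Darmor-*bzh* v4.2. Because fragments shared by similar genes can be split by Cufflinks, homeologs have less certain values. The members and lists were chosen with earlier results of these data known.

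Chromosome and number were read from each identifier. In the study's *Aux/IAA* gene list, unplaced sequence starts at number 43610 (C01), 44470 (C02) or 47390 (C08) at the latest, and such numbers were left out. The highest placed gene of that list is 39910 (C01), 33820 (C02) or 43830 (C08), so that some genes above these numbers, C08 members included, may be unplaced. Medians and shares were computed with Python 3.11.15, numpy 2.4.6 and pandas 2.3.3. The log2 fold changes used a pseudocount of 0.1 FPKM and a threshold of 2-fold. Depth was estimated as the number of fragments that turned low FPKM of 10 (control) and 7 (IAA) *Aux/IAA* genes into whole fragments. The mean fragment length was 195 bp. Depth was recovered within 2% in 20 of 20 simulated libraries. These were made of whole fragments with the same transcript lengths as in the fit. They check the search alone, and not errors in the lengths or fragments split between genes. Single genes have no interval, since their transcript lengths were not used.

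Named by rule were the 5 members of each segment with the highest mean FPKM, the 5 largest positive and negative log2 fold changes among members that reached 1 FPKM, the genes at each border and the *Aux/IAA* genes inside. Anchors, neighbours and examples of low values were added after their values were seen. The tissue label was not checked, since no marker gene could be named. Alternatives were other thresholds, borders, pseudocounts, filters and centring.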

Additional observations from a re-analysis of the deposited data

How the results depend on the processing

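No paired analysis was possible because there is only 1 library for each condition. Of 93 values recomputed, 55 stayed within the interval set for the main value and 38 left it. The interval was 95% binomial across genes, or 1.5 times a count. It treats neighbouring genes as independent and does not measure variation between libraries. Shares at another threshold and counts among fewer genes were judged by the interval of the main setting, so they could leave it by construction. The tally is therefore no measure of robustness. The median log2 fold change of the members, -0.03, lay on the other side of 0 after centring (0.03) and with either filter on low values (0.02 for both). For all segments, the share at 1 FPKM or more was 29.0% in the control and 29.5% with IAA with borders 200 numbers further out, and 28.2% and 30.6% with only genes above 0 FPKM in both libraries. At a threshold of 5 FPKM it was 4.38% and 6.57%, and at 0.5 FPKM 27.7% in the control. On C01 it was 0% and 5% at 5 FPKM. On C02 it was 0% in both libraries at 5 FPKM, and 0% in the control with borders 200 numbers further in, where 9.09% of the numbers were listed and the IAA median was 0.0138 FPKM. On C08 it was 11.3% in both libraries at 5 FPKM, 41.6% and 39.0% with borders further out, and 48.1% in both libraries with only genes above 0 FPKM. Genes above 0 FPKM in both libraries had medians of 0.391 FPKM and 0.322 FPKM in all segments, 0.341 FPKM in the control on C01, and 0.773 FPKM and 1.00 FPKM on C08, since this filter removes low genes. In the A01 stretch 78.6% and 76.0% of genes reached 0.5 FPKM, and with IAA 75.2% of the interpolated stretch reached 1 FPKM. The interpolated stretch, and C08 without its 4 highest genes, were chosen after seeing the data.

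Members at least 2-fold higher and lower with IAA, 15 and 16, were 2 and 1 when the pseudocount was 1 FPKM, 31 and 38 when it was 0.01 FPKM, 3 and 1 among genes that reached 1 FPKM in one library or 0.5 FPKM in both, and 1 and 0 at a 4-fold threshold. After centring, a log2 shift of -0.09, they were 19 and 14. The share of higher genes among those changed was 48.4%, against 32.7% over all genes. After centring it was 57.6% against 37.7%, and with a pseudocount of 1 FPKM 66.7% against 43.3%. With either filter it was 75%, against 34.0% of changed genes that reached 1 FPKM and 34.8% with 0.5 FPKM in both. The shares of 66.7% and 75% rest on only 2 and 1, and 3 and 1, members. Over all genes, 2668 higher and 5487 lower became 666 and 873 (pseudocount of 1 FPKM), 4311 and 9099 (0.01 FPKM) and 2999 and 4956 (centred). They became 1103 and 2137 for genes that reached 1 FPKM, 752 and 1408 with 0.5 FPKM in both and 724 and 1160 at 4-fold. Depth limits the members under 3 fragments per kb most, and their differences were not tested.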

Other observations

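A stretch of A01 resembled the C01 segment. It was found after the windows had been compared. From number 28510 to 29500 of A01, 18 genes outside the *Aux/IAA* family were listed among 100 numbers, with a median of 0.0302 FPKM in the control and 0.0732 FPKM with IAA, and none of these 18 genes reached 1 FPKM in either library. The *Aux/IAA* gene BnaA01g28670D, which lies among them, was at 0.172 FPKM and 1.78 FPKM. The numbers of C01 opposite to it by the same anchors, 35860 to 36930, begin just above the C01 segment. There 60 genes outside the family were listed, with medians of 3.46 FPKM and 2.62 FPKM, and 75% reached 1 FPKM in each library. The low genes therefore lay on C01 in the segment and on A01 next to the matching stretch. The upper part of these C01 numbers lies beyond the anchors used, so that this match is an extrapolation. A further placed pair above it, BnaC01g39910D with BnaA01g33420D, was not used for the match. Outside the segments, windows with as few listed genes and as low medians were also found on C01 (37510 to 38000), C02 (1510 to 2000 and 9010 to 9500) and C05 (51510 to 52000).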
